A study of Mus musculus with 4 samples.

Results

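The genes described here are the 10 that write, erase or read DNA methylation in this probe set: the methyltransferases Dnmt1, Dnmt3a and Dnmt3b, the dioxygenases Tet1, Tet2 and Tet3, and the readers Mbd1, Mbd2, Mbd3 and Uhrf1. They were taken by symbol, and all 10 were found among the 19465 features of the array. Their levels were measured by Visium-FFPE in 4 coronal brain sections from male wild-type C57BL/6J pups at postnatal day 21. The pups came from dams of 8 weeks of age on 2 mg/kg folic acid (FA; MF group, 2 sections) or 20 mg/kg FA (HF group, 2 sections), given from 2 weeks before mating and through pregnancy and lactation. No treatment other than the diet of the dams was applied in either group, and each section is 1 replicate. Visium-FFPE counts pairs of probes ligated on the RNA of a 5 µm fixed section, in spots that each cover several neighbouring cells. Fewer cells of a type in a spot and less RNA per cell therefore cannot be told apart. The counts of different genes also depend on how many probe pairs a gene has, so each gene is compared with itself across areas and diets and not with the other genes.

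Folate carries the methyl groups that pass through methionine to S-adenosylmethionine, from which the DNA methyltransferases take them. Dnmt1 copies methylation onto the new strand after replication, guided by Uhrf1, which binds the hemimethylated site, while Dnmt3a and Dnmt3b place methylation at new sites. Tet1, Tet2 and Tet3 oxidise 5-methylcytosine to 5-hydroxymethylcytosine, which is abundant in neurons, and start its removal. Mbd1 and Mbd2 bind methylated CpG sites and recruit repressors, and Mbd2 and Mbd3 are alternative subunits of the NuRD remodelling complex. Dnmt3a is the main enzyme that methylates new sites in maturing neurons.

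In GENCODE vM21 (GRCm38) all 10 are protein-coding genes. Dnmt1 (ENSMUSG00000004099) lies at chr9:20907209-20959888 on the minus strand, Dnmt3a (ENSMUSG00000020661) at chr12:3806007-3914443 on the plus strand and Dnmt3b (ENSMUSG00000027478) at chr2:153649450-153687730 on the plus strand. Tet1 (ENSMUSG00000047146) lies at chr10:62804570-62908996, Tet2 (ENSMUSG00000040943) at chr3:133463679-133545139 and Tet3 (ENSMUSG00000034832) at chr6:83362373-83459084, all on the minus strand. Mbd3 (ENSMUSG00000035478) lies at chr10:80392539-80399550 on the minus strand and Uhrf1 (ENSMUSG00000001228) at chr17:56303321-56323486 on the plus strand. Mbd1 (ENSMUSG00000024561) and Mbd2 (ENSMUSG00000024513) are both on a plus strand.

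The start regions of 4 members are shown as examples of genes whose levels differed between areas in what follows. Dnmt1 and Tet1 were high in the dentate gyrus, Dnmt3a was low there and high in the thalamus, and Tet2 was high in the striatum. The choice did not follow how well the differences held. Those of Dnmt1 were each lost under some change of the processing, and Tet3, not shown, was low in the hypothalamus under every one. The sequences are RefSeq promoters of GRCm38.p6, from 250 bases before to 50 after a transcription start, written 5′ to 3′ on the strand of the gene, with every CpG in capitals. The probes count the gene as a whole, so the start that was used in a given area is not known.
Dnmt1 (the third of 3 listed starts, chr9:20952574-20952873): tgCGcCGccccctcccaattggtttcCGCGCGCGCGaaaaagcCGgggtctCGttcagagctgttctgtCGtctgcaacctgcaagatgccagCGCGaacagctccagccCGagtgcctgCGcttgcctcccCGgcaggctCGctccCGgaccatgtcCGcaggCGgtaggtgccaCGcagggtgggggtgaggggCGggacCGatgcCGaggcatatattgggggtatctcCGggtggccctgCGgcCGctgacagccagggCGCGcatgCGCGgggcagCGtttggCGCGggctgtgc
Dnmt3a (the first of 3 listed starts, chr12:3806730-3807029): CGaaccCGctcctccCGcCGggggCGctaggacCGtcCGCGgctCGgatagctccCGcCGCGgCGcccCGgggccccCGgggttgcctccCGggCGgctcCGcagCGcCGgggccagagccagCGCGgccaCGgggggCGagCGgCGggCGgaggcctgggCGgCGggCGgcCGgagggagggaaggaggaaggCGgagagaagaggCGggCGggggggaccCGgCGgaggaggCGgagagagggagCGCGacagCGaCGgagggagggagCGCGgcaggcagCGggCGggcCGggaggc
Tet1 (chr10:62887275-62887574): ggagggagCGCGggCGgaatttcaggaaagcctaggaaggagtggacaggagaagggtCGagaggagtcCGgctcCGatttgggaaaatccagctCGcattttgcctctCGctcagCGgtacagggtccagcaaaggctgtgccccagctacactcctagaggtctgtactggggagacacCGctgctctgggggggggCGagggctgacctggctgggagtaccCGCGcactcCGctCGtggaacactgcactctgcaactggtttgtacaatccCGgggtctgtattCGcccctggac
Tet2 (chr3:133544341-133544640): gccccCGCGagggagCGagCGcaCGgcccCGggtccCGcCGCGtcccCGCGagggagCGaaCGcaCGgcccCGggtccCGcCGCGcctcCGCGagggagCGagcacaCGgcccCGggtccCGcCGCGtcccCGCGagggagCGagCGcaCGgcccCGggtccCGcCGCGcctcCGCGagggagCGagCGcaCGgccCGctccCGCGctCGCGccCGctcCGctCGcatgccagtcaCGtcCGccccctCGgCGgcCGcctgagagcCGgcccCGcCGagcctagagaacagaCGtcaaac
The Tet2 region holds 57 CpG, a number that 0.152% of the 32851 promoters of the same length reach, where the median promoter holds 7. The Dnmt3a region holds 46 (reached by 1.65% of promoters), the Dnmt1 region 33 (8.56%) and the Tet1 region 17 (31.4%). The other listed starts of Dnmt1 hold 2 and 12 CpG, and the farther start of Dnmt3a, at chr12:3891494-3891793, holds 18. The single listed promoters of Dnmt3b, Tet3 and Mbd3 hold 30, 22 and 22 CpG, and the pair for Uhrf1 12 and 33.

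The 4 sections held 34983708 to 90098381 UMIs (unique molecular identifiers, 1 for each counted probe pair) over 3202 to 3602 spots, and MF replicate 1 had the most. Between 2649 and 3110 spot barcodes occurred in both sections of a pair, because the arrays carry the same barcodes. Spots were clustered with the 10 genes and related lists left out, and clusters were named from marker genes, which gave 12 areas. These were cortical layers 2-3 and 4-6 (L2-3, L4-6), hippocampal CA1, CA2-3, dentate gyrus (DG) and part of the surrounding layers (matrix), thalamus (TH), hypothalamus (HY), striatum (STR), choroid plexus (ChP), medial habenula (MHb) and white matter (WM). The matrix was a single cluster of 275 spots led by Reln and Ndnf. The cortex (CTX) and the hippocampus (HP) were also summed whole, while layer 1 and olfactory areas found no cluster and clusters of 2356 spots took no region name. A further 1174 spots of the cortex and 638 of the hippocampus took no area within their region. Those of the cortex include the 367 spots led by Rorb, Adam33 and Cartpt, which are therefore not in L4-6. The summed levels of some lists of other marker genes lay apart between the diets. The summed level of 13 oligodendrocyte genes was 26417 and 27593 CPM (UMIs scaled to a total of 1000000 for the section) for MF and 21896 and 23498 for HF, and that of 15 immediate early genes was 396 and 391 for MF and 701 and 806 for HF. Neither list held a gene at 0 in every section, and no gene of either was called between the diets over the whole section. The sum of 8 astrocyte genes overlapped, at 3580 and 3587 CPM for MF and 3859 and 3311 for HF. The part of these lists in the differences of the members was not tested.

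**Figure D1:**
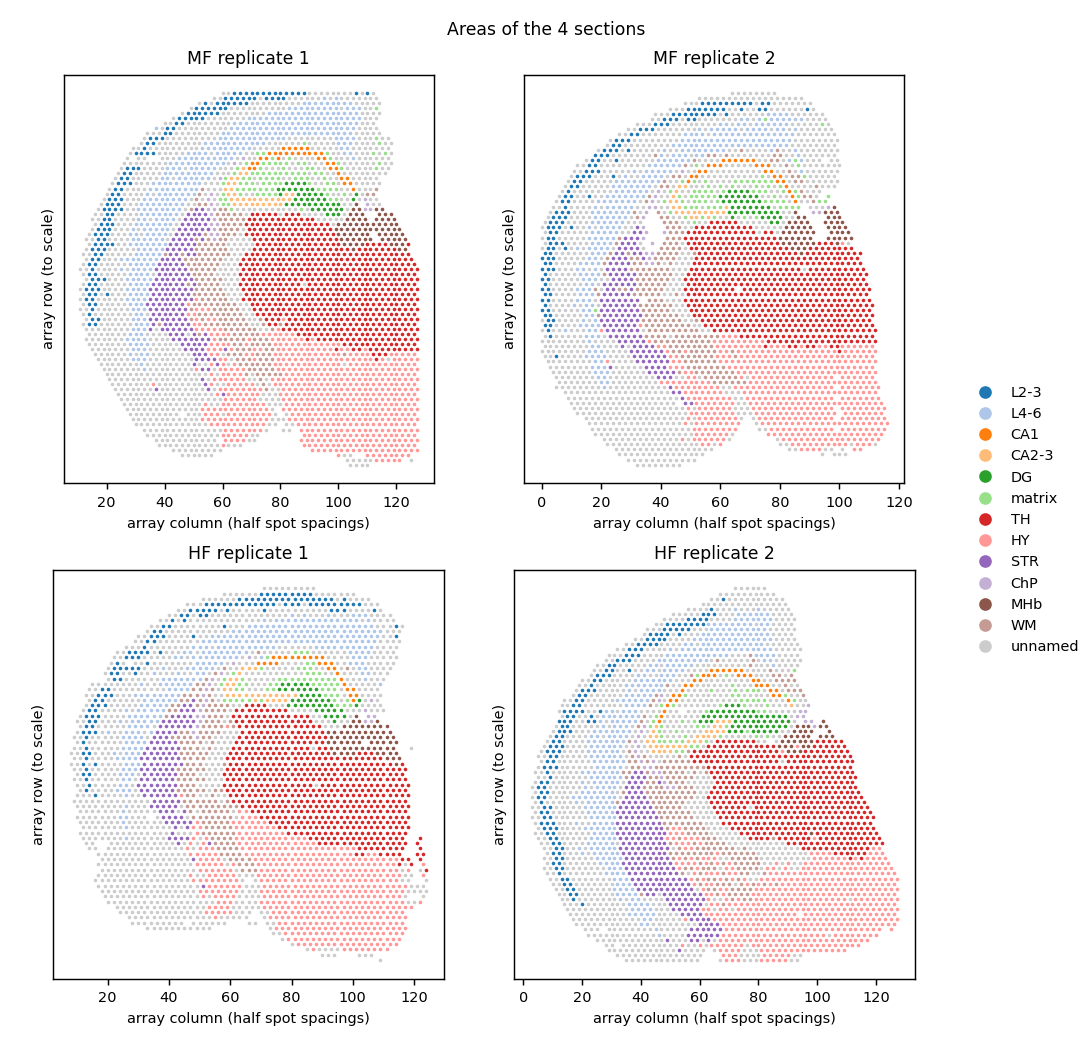
Spots of the 4 sections at their array positions (x axis, array column; y axis, array row, to scale), coloured by area. Each of the 12 named areas is present in each section, DG holding between 41 and 57 spots and TH between 524 and 660, and spots of unnamed clusters are grey. The clusters within TH and HY were unequally shared between sections. In HY, that led by Pmch, Hcrt and Avp had 236 and 277 spots in MF and 339 and 408 in HF. That led by Oxt, Agrp and Irs4 had 294 and 183 in MF and 146 and 93 in HF.

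Over whole sections, in the order MF replicate 1, MF replicate 2, HF replicate 1 and HF replicate 2, Dnmt3a was at 184, 186, 200.4 and 195 CPM. Mbd3 was at 207, 206, 183 and 206 CPM and Mbd2 at 98.5, 96.2, 89.4 and 115 CPM. For both readers HF replicate 1 was lowest, and the HF and MF ranges overlapped.

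Dnmt1 was at 44.8 and 46.2 CPM in MF and at 50.7 and 50.9 in HF. Tet3 was at 42.0 and 41.9 CPM in MF and at 49.3 and 45.5 in HF. In both genes, as in Dnmt3a, each HF section lay above each MF section. Tet1 was at 25.4 and 25.7 CPM in MF and at 30.4 and 24.2 in HF, Tet2 at 41.1 and 39.8 in MF and at 39.2 and 43.1 in HF, and Mbd1 at 39.7 and 41.0 in MF and at 38.3 and 40.4 in HF. In these the HF sections overlapped the MF sections.

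Dnmt3b and Uhrf1 were close to the floor of the assay. Dnmt3b gave 91, 39, 22 and 40 UMIs in the 4 sections, which is 1.01, 0.919, 0.629 and 0.941 CPM. Uhrf1 gave 147, 82, 52 and 69 UMIs, or 1.63, 1.93, 1.49 and 1.62 CPM. Both HF sections lay below both MF sections for Uhrf1, though HF replicate 2 and MF replicate 1 were nearly level.

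**Figure D2:**
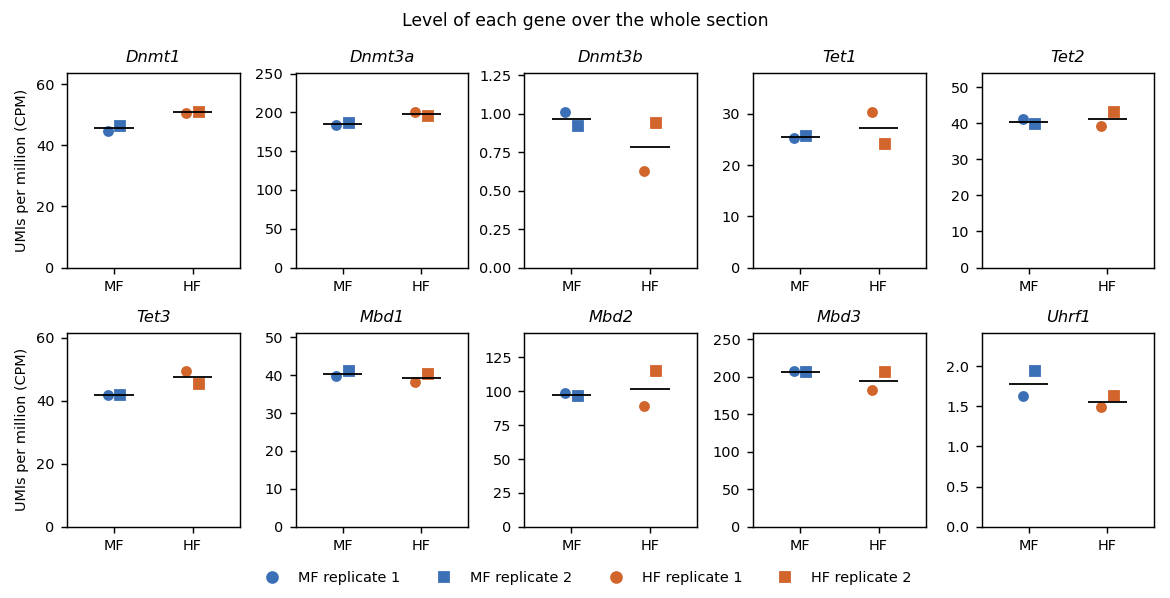
Level of each of the 10 genes over the whole section (y axis, CPM, from 0) in MF and HF (x axis); points are sections and lines are group means. The HF sections of Dnmt1, Dnmt3a and Tet3 lie above the MF sections, those of Uhrf1 lie below, and for the other genes the groups overlap.

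The first question was whether the members differ between areas of the brain, where regional differences within the enzyme families can be read. Each area was set against the mean of the other 11 with the quasi-likelihood test of edgeR, fitted over 12502 features with section as a block, and a contrast was called where the p-value, adjusted by Benjamini-Hochberg, was under 0.05 and the ratio reached 1.2-fold. Of the members 8 passed the filter on low counts, and Dnmt3b and Uhrf1 did not. Of their 96 contrasts 22 were called, 12 higher and 10 lower, which is 22.9%. Over all features 37.0% of contrasts were called (18.9% higher and 18.1% lower), so the share among the members was not above that of the array at large.

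By area, 4 of the 8 members were called in DG (43.0% of all features) and 3 each in CA1 (41.4%), CA2-3 (43.2%) and HY (41.2%). The number was 2 each in L2-3 (35.8%) and TH (38.9%). In each of L4-6 (32.8%), STR (21.9%), ChP (51.4%), MHb (36.4%) and WM (47.5%) 1 was called, and none in the matrix (10.7%), where 1 reached an unadjusted p-value under 0.05. Scaling by library size alone moved the median feature by more than 0.1 on the log2 scale in CA2-3 (-0.24), CA1 (-0.15), HY (0.14) and MHb (0.14). The log2 ratios below are scaled by TMM and so are relative to that shift, while the CPM levels beside them are not.

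Among the writers, Dnmt3a varied most, and 8 of its 12 contrasts were called. Among the 12 named areas its level was highest in TH, at 207, 216, 233 and 228 CPM in the 4 sections. It was lowest in CA2-3, at 118, 86.4, 115 and 102 CPM. The ranges were far apart, and the log2 ratio of TH over CA2-3 was 0.85 ± 0.07 (n = 4 sections, edgeR adjusted p = 3.54e-16). For log2 ratios, the value after ± is the SE derived from the edgeR fit, whose spread is estimated partly over all features. It is not an SE over the ratios of the single sections. Against the mean of the other areas, TH was 0.38 ± 0.04 higher on the log2 scale and L2-3, at 215 ± 8.57 CPM (SD, n = 4), 0.37 ± 0.05 higher, each in 4 of 4 sections. CA1 was 0.34 ± 0.07 lower, DG 0.35 ± 0.05 lower and HY 0.33 ± 0.04 lower, also in 4 of 4 sections. The HY ratio was inside the 1.2-fold limit with library size alone (-0.18) and with spots thinned to 5000 UMIs (-0.23). L4-6 (0.28 ± 0.04) and WM (0.28 ± 0.04) were higher by less, and each of these lay near the 1.2-fold limit. L4-6 was at 0.24 without HF replicate 1 and WM at 0.26 without HF replicate 2, under that limit. Both calls were also lost with clustering at resolution 0.5 and with interior spots, whose neighbours all lie in the same area. That of L4-6 was lost with DESeq2, library size alone and thinned spots too. The ratios went down to 0.20 in L4-6 and 0.16 in WM. MHb was at 212 ± 14.6 CPM, and its ratio of 0.20 ± 0.05 was inside the 1.2-fold limit, though by the share of thinned spots with a Dnmt3a UMI it was highest (70.9%, beside 66.3% in TH). Oligodendrocyte genes were called higher in TH and WM (13 of 13 in each) and lower in CA1, CA2-3 and DG (13 of 13 in each), but also lower in L2-3 (13 of 13) and L4-6 (8 of 13), where Dnmt3a was called higher, and higher in STR and ChP (13 of 13 in each), where Dnmt3a was not called (0.09 ± 0.05 and -0.09 ± 0.07). Their part in the Dnmt3a pattern was not tested. In the order of levels (TH, L2-3, MHb, WM, L4-6, STR, matrix, ChP, HY, DG, CA1, CA2-3) no neighbours differed past both thresholds, and TH lay above 6 of the other 11 areas by the pairwise test.

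Dnmt1, the maintenance enzyme, was called higher in DG, where Dnmt3a was called lower. It was at 61.5, 51.0, 46.3 and 75.5 CPM in DG, at 33.8, 18.3, 38.1 and 36.5 CPM in CA1 and at 29.7, 25.2, 44.6 and 29.4 CPM in CA2-3. Each section had more Dnmt1 in DG than in CA1 and CA2-3. The log2 ratio to the other areas was 0.37 ± 0.10 in DG (adjusted p = 0.00125, 3 of 4 sections by CPM), -0.39 ± 0.15 in CA1 (adjusted p = 0.0324) and -0.37 ± 0.14 in CA2-3 (adjusted p = 0.0270). With thinned spots the DG call was lost (0.45, adjusted p = 0.118). DG over CA1 was 0.70 ± 0.18 (adjusted p = 0.000975). The CA1 call was lost without MF replicate 1 (-0.48, adjusted p = 0.0591), without MF replicate 2 (-0.28, 0.196) or without HF replicate 2 (-0.41, 0.0852), and the CA2-3 call without the same sections (-0.35, -0.35 and -0.30, adjusted p from 0.0697 to 0.159). HY followed DG in the order, at 56.7 ± 4.57 CPM, and no neighbours in the order differed.

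Of the erasers, Tet1 had the largest of the 96 ratios. It was at 44.5, 49.2, 44.4 and 36.3 CPM in DG, where the section levels of CA2-3, the lowest area, were 21.7, 25.2, 17.2 and 13.1 CPM. No DG section reached down to the highest CA2-3 section. Against the other areas DG was 0.72 ± 0.12 higher (log2, 4 of 4 sections, adjusted p = 4.53e-07), and in pairwise tests it lay above all 11 other areas. MHb came next with 35.4 ± 5.51 CPM (0.30 ± 0.12, adjusted p = 0.0435), a call that was lost without MF replicate 2 (0.32, adjusted p = 0.0650), HF replicate 1 (0.22, 0.245) or HF replicate 2 (0.24, 0.119).

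Tet2 was highest in STR, at 53.5, 51.8, 55.7 and 62.4 CPM, above 10 of the other 11 areas by pairwise tests (all but the matrix, adjusted p = 0.0956) and 0.37 ± 0.09 (log2) above HY, the next area (adjusted p = 0.000534). The STR contrast was 0.44 ± 0.08 (adjusted p = 8.94e-06, 4 of 4 sections). TH was low with a narrow spread, at 34.9, 32.7, 33.5 and 35.9 CPM, and its ratio of -0.27 ± 0.06 moved to -0.26 without MF replicate 2 and -0.24 without HF replicate 2, inside the 1.2-fold limit. CA2-3 was lowest, at 28.0, 21.6, 24.0 and 29.4 CPM (-0.48 ± 0.14, adjusted p = 0.00235), a call lost with thinned spots (-0.85, adjusted p = 0.106).

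Tet3 was low in HY, at 36.9, 34.4, 43.7 and 40.2 CPM (-0.42 ± 0.06, adjusted p = 4.70e-08, 4 of 4 sections), and higher in DG (59.3 ± 7.14 CPM, 0.30 ± 0.09), L2-3 (54.5 ± 4.54 CPM, 0.28 ± 0.09) and CA1 (0.31 ± 0.13). The CA1 sections were at 45.1, 36.6, 71.7 and 59.2 CPM, a wide spread in which both HF sections were above both MF sections. Its call did not hold without MF replicate 1 (0.38, adjusted p = 0.0608), HF replicate 1 (0.20, 0.269) or HF replicate 2 (0.24, 0.236). Without MF replicate 2 the DG (0.23, adjusted p = 0.0682) and L2-3 (0.23, 0.0596) calls were lost too. All 3 of these higher calls were lost with thinned spots. The L2-3 and CA1 calls were also lost with DESeq2 in place of edgeR and with library size alone. That of L2-3 was lost with clustering at resolution 0.5 as well. No neighbours in the order of Tet3 levels differed.

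**Figure D3:**
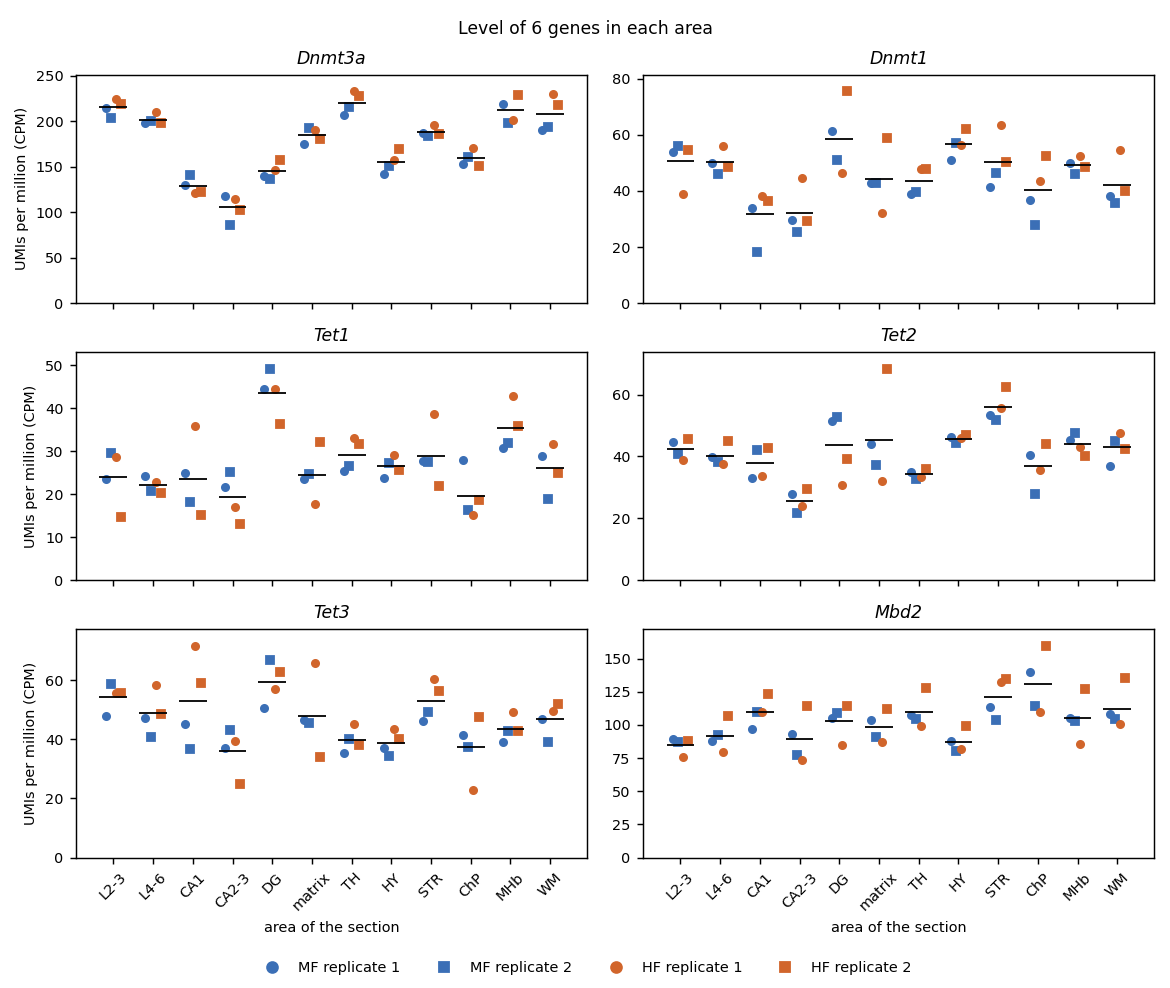
Levels of 6 genes (y axes, CPM, from 0) in the 12 areas (x axis); points are the 4 sections and lines their means. Dnmt3a is lowest in CA1 and CA2-3, Tet1 highest in DG at 36.3 to 49.2 CPM, and Tet2 highest in STR at 51.8 to 62.4 CPM.

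Of the readers, Mbd2 was called in a pair of areas. It was at 140, 114, 110 and 160 CPM in ChP (0.45 ± 0.08, adjusted p = 1.90e-06, 4 of 4 sections) and at 87.5, 80.3, 81.8 and 99.3 CPM in HY (-0.41 ± 0.05, adjusted p = 3.40e-12, 4 of 4 sections). The ChP call was lost with thinned spots (0.46, adjusted p = 0.0705), and with library size alone the HY ratio was inside the 1.2-fold limit (-0.26). L2-3 was at a similar CPM level, with a mean of 85.0 ± 6.06, and its ratio of -0.26 ± 0.06 was inside the 1.2-fold limit. Mbd1 and Mbd3 had no called area. Mbd1 ranged from 29.3 ± 2.37 CPM in CA2-3 to 48.2 ± 2.61 in MHb, and Mbd3 from 176 ± 17.3 CPM in CA2-3 to 225 ± 30.3 in the matrix. For each of them edgeR called 0 of 12 areas, with 1 at an unadjusted p-value under 0.05, and DESeq2 called 0.

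**Figure D4:**
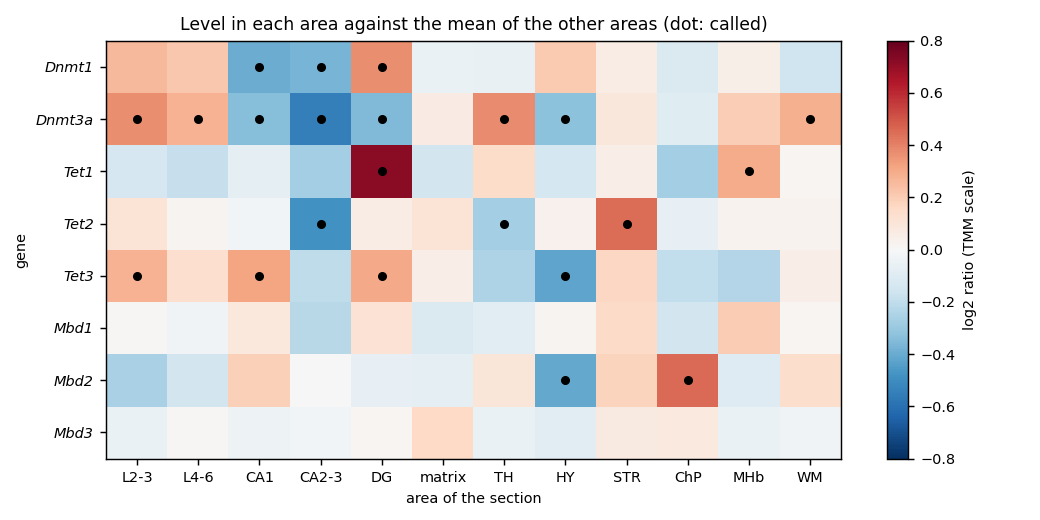
Log2 ratio (colour, TMM scale) of each gene (rows) in each area (columns) to the mean of the other areas, with dots at the 22 called contrasts. The darkest cell is Tet1 in DG, at 0.72, and the rows of Mbd1 and Mbd3 hold no dot.

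Uhrf1, the partner of Dnmt1, could be tested by area only without the filter on low counts, and its counts were small. It gave 12, 4, 3 and 7 UMIs in DG (5.51, 3.52, 2.90 and 4.89 CPM), 12, 1, 1 and 9 in ChP (13.4, 2.34, 2.55 and 15.3 CPM) and 17, 12, 6 and 12 in WM (3.16, 4.45, 5.30 and 4.18 CPM). In L2-3 and STR, which hold more UMIs in all than ChP, it gave 6 and 7 UMIs over the 4 sections. Without the filter, edgeR put it higher in ChP (log2 ratio 2.80 ± 0.47, adjusted p = 1.37e-08), DG (1.48 ± 0.41, 0.00123) and WM (1.35 ± 0.33, 0.000144), and in no other area past the threshold. The ChP level rested on MF replicate 1 and HF replicate 2. Dnmt3b gave 34 UMIs in TH, 32 in HY and at most 14 in any other of the 12 areas. Without the filter edgeR called no area for it. DESeq2, run without that filter, called Uhrf1 in the same 3 areas and Dnmt3b in ChP, where Dnmt3b had 5 UMIs over the 4 sections.

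Genes of DNA replication and the cell cycle, a list left out of the clustering, had 8 of the 9 tested called higher in DG, 7 in ChP and 5 in WM, and none lower, where 21.9%, 25.5% and 21.5% of all features were called higher. In L4-6 6 were lower, in HY 5 and in TH 4, beside 16.1%, 20.3% and 20.1% of all features. Outside DG, Dnmt1 was called in none of these areas. Its log2 ratio was -0.12 ± 0.16 in ChP and -0.16 ± 0.09 in WM. It was 0.22 ± 0.07 in L4-6, 0.21 ± 0.07 in HY and -0.06 ± 0.07 in TH. The DG spots fell into a cluster led by C1ql2, Dsp and Prox1 (93 spots) and one led by Igfbpl1, Sox11 and Neurod1 (92 spots), the second a set of genes of immature neurons. Dnmt1 was at 69.5, 59.2, 59.7 and 78.2 CPM in the Igfbpl1-led spots and at 53.5, 38.2, 26.5 and 73.0 CPM in the C1ql2-led spots, higher in 4 of 4 sections. Uhrf1 was at 7.32, 5.78, 3.23 and 7.24 CPM against 3.69, 0, 2.41 and 2.70 CPM, also higher in 4 of 4 sections. These Uhrf1 values are close to the floor, since both clusters together held 12, 4, 3 and 7 Uhrf1 UMIs in the 4 sections. Dnmt3a was higher in 4 of 4 sections too, by less (145, 137, 153 and 169 against 135, 135, 137 and 147 CPM), and Mbd2 and Mbd3 were lower in 3 of 4. Tet1 was higher in 3 of 4 sections, and HF replicate 2 went the other way (23.2 against 48.6 CPM). Tet2 was lower in the Igfbpl1-led spots in 3 of 4 sections. These differences were not tested. Of 7 genes of immature dentate neurons 5 were called higher in DG, and their part in the DG values was not tested.

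The wider pathway was read from lists of related genes. Of 4 tested partners of the writers, Trim28 and Zfp57, which hold methylation at imprinted and repeated sequences, were higher in DG (0.50 ± 0.04 and 1.95 ± 0.18, log2). Of 17 other readers and NuRD subunits, 8 were higher in DG and none lower, where 21.9% of all features were called higher and 43.0% in either direction: Mbd4, Mbd5, Uhrf2, Hdac1, Hdac2, Gatad2b, Mta2 and Rbbp7, between 0.27 (Mbd5) and 0.96 (Mbd4). In WM 4 of the 17 were higher and 7 lower (47.5% of all features were called there). Of 13 demethylation and repair genes, 4 were higher in DG, among them the glycosylases Tdg (0.32 ± 0.09) and Neil1 (0.84 ± 0.21), and Cxxc4 was lower (-1.16 ± 0.12). CA1 had 5 higher and 5 lower, beside 41.4% of all features. Of 5 genes that supply S-adenosylmethionine, Mat2b, a subunit of the synthase, was at 305 ± 19.5 CPM in L2-3 and 111 ± 3.82 CPM in HY, called in 8 areas. The median of the log2 ratios in DG was 0.09 for the members, 0.36 for the writer partners, 0.23 for the other readers and 0.11 for the demethylation genes, beside -0.01 for all features. DG was not the highest area for the members (0.12 in STR) or the demethylation genes (0.13 in L4-6). In WM the median was -0.20 for the writer partners and -0.26 for the other readers. For S-adenosylmethionine supply it was 0.15 in DG, 0.40 in CA1 and -0.37 in TH. The genes of these lists that are named here, and the DG clusters, were picked out after their values were seen.

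As a description, the features with the most similar pattern over the 12 areas were found by Pearson correlation of the mean log2(CPM + 1) among 11235 features with at least 200 UMIs in every section. These were Kcna3 (r = 0.95), Inha (0.94) and Nup188 (0.94) for Dnmt1, Apln (0.95), Rasgef1b (0.95) and Grk5 (0.91) for Dnmt3a, and Pprc1 (0.94), Ablim3 (0.94) and Nup214 (0.93) for Tet1. For Tet2 they were Xndc1 (0.91), Slc6a6 (0.91) and Ubr2 (0.90), and for Tet3 Prpf38a (0.96), Immp1l (0.93) and Kcnj2 (0.91). For Mbd1 they were Rnf31 (0.94), Zfp128 (0.93) and Tubgcp3 (0.93), for Mbd2 Tmem223 (0.84), Aff1 (0.82) and Mitf (0.80), and for Mbd3 Wnt7a (0.91), Apaf1 (0.91) and Ctdp1 (0.90). With 12 points that share sections and scaling, many features reach such values. Between members, r was highest for Tet1 with Mbd1 (0.80) and for Tet2 with Mbd1 (0.78), and Mbd2 had no r above 0.24 with any other member. Moran's I, which scores how alike neighbouring spots are, was taken from the deposited tables and was 0.0344 to 0.0905 for Dnmt3a over the 4 sections, where 15.1% to 24.6% of features had a higher score. No other member exceeded 0.0351, the score of Mbd2 in MF replicate 1.

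The second question was whether the members differed between offspring of HF and MF dams, since folate feeds the supply of methyl groups. Over the whole section, no member was called by edgeR, none had an unadjusted p-value under 0.05, and DESeq2 called none. Of all 14971 features tested none were called (0%), with 1020 at an unadjusted p-value under 0.05 (6.81%), and DESeq2 called 22. The count of features depended on single sections. Without HF replicate 1 edgeR called 1166 features and without HF replicate 2 it called 840, with no member among them. In these fits 1 HF section is left and is assumed to vary as the MF sections do. With 2 sections a group the smallest p-value of an exact permutation test is 0.333, so the tests rest on the spread edgeR estimates over all features.

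The log2 fold changes of HF over MF were 0.15 ± 0.07 for Dnmt1 (adjusted p = 0.726), 0.08 ± 0.07 for Dnmt3a (0.801) and 0.17 ± 0.08 for Tet3 (0.722), the 3 genes with each HF section above each MF section. With Uhrf1, 4 of the 10 members had separate groups, beside 39.6% of all features, and 3 had both HF sections above, beside 21.8%. Tet1 was at 0.08 ± 0.12, Tet2 at 0.02 ± 0.09, Mbd1 at -0.04 ± 0.08, Mbd2 at 0.06 ± 0.13 and Mbd3 at -0.10 ± 0.09. For these 8 members the 95% intervals of the fold lay between 0.806 (Mbd3) and 1.29 (Mbd2), so that a larger change over the section lies outside them. For Dnmt3b (-0.30 ± 0.28) the interval ran from 0.510-fold to 1.30-fold and for Uhrf1 (-0.19 ± 0.20) from 0.625-fold to 1.23-fold. The median of the 10 was 0.04, beside 0.00 over all features.

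**Figure D5:**
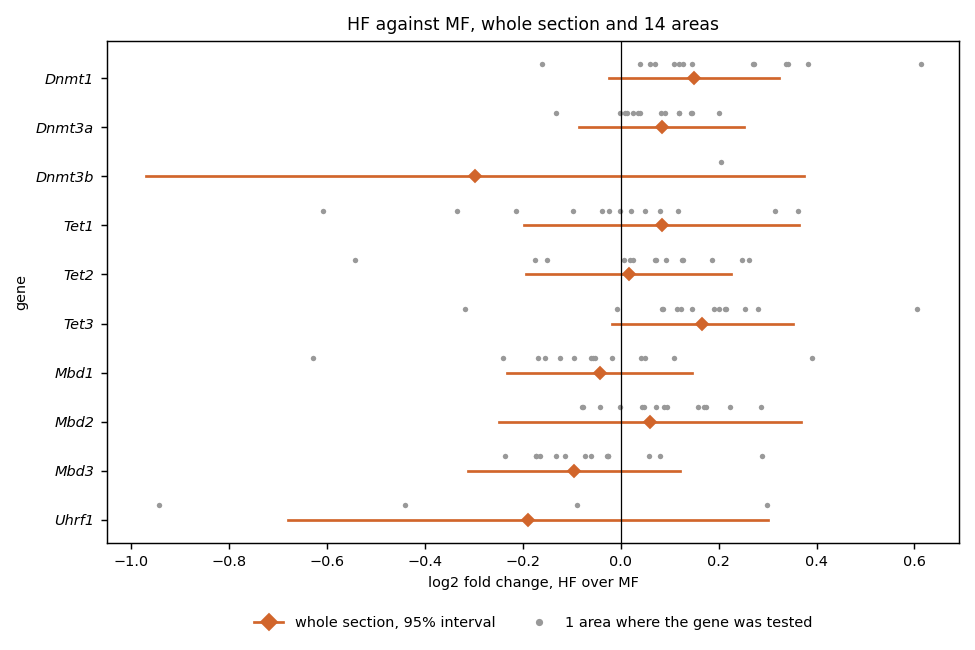
Log2 fold change of HF over MF (x axis) for each gene (y axis); diamonds with lines are whole-section values with 95% intervals and grey points are the areas where the gene passed the filter. All 10 intervals cross 0, and the areas lie on both sides of 0 for all genes but Dnmt3b, which was tested in 1 area.

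By area, 0 of 116 member and area pairs were called by edgeR over the 14 areas, beside 0.126% of all pairs of features and areas, and DESeq2 called 0. At an unadjusted p-value under 0.05 there were 5, or 4.31%, beside 7.08% of all pairs. In TH, Dnmt1 was at 39.1 and 39.8 CPM in MF and at 47.7 and 48.0 in HF (log2 0.27 ± 0.10, adjusted p = 0.650). Tet1 in TH was at 25.4 and 26.6 CPM in MF and at 33.1 and 31.8 in HF (0.32 ± 0.12, adjusted p = 0.651). For both, the sections of a diet were closer to each other than to those of the other diet, and neither passed the adjustment over all features (0% of features were called in TH). The groups did not overlap for 38.4% of all features in TH. The clusters that make up TH were unequally shared between the sections. The largest, led by Tnnt1, Prkcd and Rab37, had 274 and 295 spots in MF and 182 and 147 in HF, so its counts lay apart between the diets. The cluster led by Calb2, Slitrk6 and Gbx2 had 106 and 177 spots in MF and 375 and 114 in HF. That led by Tcf7l2, Prkcd and Synpo2 had 280 and 147 in MF and 38 and 263 in HF. The part of this make-up in the HF and MF values of TH was not tested. Without HF replicate 2 the Tet1 ratio in TH was called (0.34 ± 0.12, edgeR adjusted p = 0.0499), as were 9.82% of all features. Without HF replicate 1 that of Mbd2 in TH was (0.27 ± 0.09, edgeR adjusted p = 0.0272), as were 7.39% of all features. Both fits rest on a lone HF section, as above.

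In DG, Tet2 was at 51.4 and 52.8 CPM in MF and at 30.9 and 39.1 in HF (-0.54 ± 0.21, adjusted p = 0.638). In CA1, Tet3 was at 45.1 and 36.6 CPM in MF and at 71.7 and 59.2 in HF (0.61 ± 0.25, adjusted p = 0.774). In STR, Mbd2 was at 113 and 104 CPM in MF and at 132 and 134 in HF (0.29 ± 0.13, adjusted p = 0.705). The groups were separate in each of these 3 pairs, as they were for 35.4% of all features in DG, 33.6% in CA1 and 36.2% in STR, and the share of all features called was 0.141% in DG, 0.0463% in CA1 and 0.0611% in STR. The smallest adjusted p-value of the 116, 0.452 by edgeR, was that of Dnmt1 in ChP, at 37.0 and 28.0 CPM in MF and 43.4 and 52.6 in HF (0.61 ± 0.31).

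The areas share the sections, and CTX and HP share spots with their layers, so their signs are not independent. Dnmt1 was higher in HF in 13 of 14 areas (log2 from -0.16 to 0.61), Dnmt3a and Tet3 in 12 of 14, Tet2 in 11 of 14 and Mbd2 in 10 of 14. Mbd3 was lower in 11 of 14 and Mbd1 in 10 of 14. By area, 48.7% (CA2-3) to 50.6% (TH) of all features were higher in HF. The share of features with such counts over the 14 areas is not given here. Tet1 was higher in 6 of the 13 areas where it was tested. Whether the diet difference itself differed between CTX, HP, TH, HY, STR and WM was tested for each gene in 1 joint test of all area by diet terms. Of the 10 members 0 were called by edgeR (0 at an unadjusted p-value under 0.05, smallest adjusted p = 0.860). Beside them, 10 of 14005 features (0.0714%) were called and 7.72% had an unadjusted p-value under 0.05.

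No gene of the related lists was called between the diets over the whole section. In the 14 areas edgeR called 0 of 49 pairs of writer partners and areas, 0 of 171 for demethylation and repair genes, 0 of 230 for other readers and NuRD subunits, 0 of 71 for S-adenosylmethionine supply and 0 of 80 for the cell cycle list. The immediate early genes had 35 of 179 pairs higher in HF and the oligodendrocyte genes 28 of 181 lower in HF, beside 0.126% of all pairs called. These pairs are not independent, since CTX and HP share spots with their layers, and Egr1, for example, was called in CTX, L2-3 and L4-6. Of the oligodendrocyte pairs 11 were in L2-3, where the summed oligodendrocyte level was 8685 and 8620 CPM in MF and 5872 and 4597 in HF. The lists of microglia and of vessels and meninges had none, that of astrocytes 1 lower (Gfap in L2-3) and that of immature dentate neurons 2 lower (Stmn1 in ChP and Calb2 in CA2-3). These 3 genes were picked out after their values were seen.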

How the data were processed

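The authors deposited raw UMI counts per feature and spot for each of the 4 sections, made with Space Ranger (2.0.0 per the file headers) on mouse build mm10. The Moran's I score of each feature was also deposited by the authors, for each section. Spots under 500 UMIs or 250 genes were left out (2 to 7 per section). Median depth was 9286 to 23543.5 UMIs per spot. Spots were clustered over all sections on 2000 variable genes, 30 principal components and 20 neighbours (Leiden, resolution 1, leidenalg 0.10.2), with 81 member and list features kept out. A cluster took an area's name from at least 3 markers among its 50 leading genes. Spots are not replicates, so UMIs were summed per section and area and tested with edgeR 4.0.16 (R 4.3.3; TMM, filterByExpr, quasi-likelihood test, Benjamini-Hochberg adjustment over all features), with DESeq2 1.42.0 as an alternative. Calls needed an adjusted p-value under 0.05 and 1.2-fold, and areas needed 10 spots in each section. P-values rest on 2 sections a diet, which nothing used here ties to separate litters. The scripts were tested on simulated data. CPM levels are UMIs scaled to a total of 1000000 over a section or area. The 10 members, the gene lists and the markers were chosen with earlier results of these data known. All members are named, and for the 8 with at least 200 UMIs in every section the 3 features most alike. From the lists, the rule names genes called over the whole section or in more than 1 area. List genes outside it are given as picked out after their values were seen.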

Additional observations from a re-analysis of the deposited data

How the results depend on the processing

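Over the whole section 0 members were called under every alternative run, while the number of features called was 22 with DESeq2, 5 with no filter on low counts, 1 with spots thinned to 5000 UMIs, and 0 to 1166 on leaving out a section. The replicate number as a block called 0 features and 0 members. The numbers did not pair the sections (correlation of deviations -0.165), and crossing them, a choice made after seeing the data, called 11 features and 0 members. The sign of the diet ratio (log2) turned for 5 members on leaving out a section. Tet1 ranged from -0.075 (without HF replicate 1) to 0.23, Tet2 from -0.072 (without HF replicate 2; -0.0095 without MF replicate 2) to 0.095, Mbd1 from -0.10 to 0.0077 (without HF replicate 1), Mbd2 from -0.15 (without HF replicate 2) to 0.24 and Mbd3 from -0.20 to 0.00054 (without HF replicate 1). By area 0 to 1 pairs of member and area were called on leaving out a section.

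Of the 22 area contrasts called, 8 held in every alternative run: Dnmt3a in TH, L2-3, CA1, CA2-3 and DG, Tet1 in DG, Tet2 in STR and Tet3 in HY. With thinned spots 14 were called, of which 10 were among the 22 and 4 were not, and on leaving out a section 18 to 25. Interior spots could be run in areas holding 8 of the calls, of which 6 held, and 10 were called there in all. The area of the highest level was the same for 6 of 10 members when areas were ranked by the share of thinned spots with a UMI. The cause was not tested, though thinning by construction leaves fewer UMIs. Interior spots left fewer than 10 spots in a section for ChP, MHb, L2-3, CA1, CA2-3, DG and the matrix, as did resolution 0.5 for ChP, and these were not run. Depth limits Dnmt3b and Uhrf1 most, with 22 to 147 UMIs per section.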

Other observations

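Some clusters were named by no marker set, and Dnmt3a is given here for 3 of them. In the cortex, Dnmt3a was at 226 ± 14.4 CPM (SD, n = 4) in the 367 spots led by Rorb, Adam33 and Cartpt. This mean was above the 221 CPM of TH, the highest of the named areas. Dnmt3a was at 171 ± 18.5 CPM in the 305 spots led by Myl4, Wnt7b and Kcng1. In the hippocampus, the 235 spots led by Cd74, Sst and Crhbp held it at 173 ± 11.1 CPM. These clusters entered no comparison between areas.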
